A study of Mus musculus with 15 samples.

Results

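Control nanoparticles loaded with eGFP mRNA were set against IL-4 alone in mouse bone marrow-derived macrophages (BMDMs). The 4 samples titled for IL-4 with eGFP nanoparticles (eGFP-NP 1 to 4) and the 4 titled for IL-4 only (IL4 1 to 4) were taken by their labels, which made 8 of the 15 samples of the series. The other samples were BMDMs given nanoparticles with IRF5 mRNA after the same IL-4 conditioning (IRF5-NP, 3 samples; by the methods these also carried mRNA for the IRF5-activating kinase IKKβ and some eGFP mRNA) and BMDMs exposed to the Toll-like receptor 4 agonist MPLA (4 samples). All were read on the Myeloid Innate Immunity panel of NanoString's nCounter, an assay that tags single RNA molecules with fluorescent barcodes and counts them with no amplification step.

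All BMDMs were grown out of mouse femur marrow in M-CSF (strain and genotype were not given in the sources used here), and the 8 cultures described here were then kept for 4 days in 20 ng/mL IL-4. The eGFP-NP cultures were next incubated for 1 h with 1 µg of nanoparticles by the labels. The methods of the study give another amount, stated as mRNA, and which of them applies is not settled. The particles were poly(β-amino ester) polymer wound around in vitro transcribed mRNA, with a polyglutamic acid coat bearing Di-mannose, a ligand of the mannose receptor CD206. By the methods, particle-treated cells were also sorted for strong eGFP signal and put back into a low dose of IL-4 before RNA was isolated. The methods state neither step for the IL4 cultures. The particle, its mRNA cargo, the sort and the second IL-4 exposure therefore cannot be told apart in this comparison.

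IL-4 signals through its receptor and the transcription factor STAT6 and drives macrophages into the state called M2 or alternatively activated, in which they make Retnla, Chil3 and the chemokines Ccl24 and Ccl17. Macrophages are also professional phagocytes. They take up particles through mannose and scavenger receptors, secrete the complement starter C1q, and show peptides on MHC class II molecules to T cells. Foreign RNA in endosomes or cytosol is a known trigger of Toll-like receptors, RIG-I-like sensors and interferon genes, and this is why a control particle with an inert reporter mRNA is usually run beside one with an active cargo.

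The 8 libraries did not form 2 uniform groups, and this bears on every value below. Total gene counts were 1087549, 1486187, 1562163 and 1639968 in IL4 1, 2, 3 and 4. They were 1479122, 1524232, 832822 and 738305 in eGFP-NP 1, 2, 3 and 4. Background, the mean of the 8 negative control probes plus 2 SD, lay at 19.7 to 34.9 counts, and 463 to 603 of 754 genes exceeded it. Counts of eGFP-NP 1 and 2 differed no more than counting error allows when genes with 40 or more counts in the pair were taken (a chi-square of 1.09 per degree of freedom, p = 0.0817), and by slightly more when the minimum was 100 counts (1.15, p = 0.0162). They were summed and counted as 1 sample, named eGFP-NP 1-2, which left an n of 3 against 4. The pair eGFP-NP 3 and 4 was nearly as close (1.36 at the minimum of 40 counts), against 267 to 1250 for pairs of IL4 libraries. It still differed by more than counting error (p = 1.61e-08 by the same chi-square) and was kept as 2 samples. Between eGFP-NP 1 and 3, 57.1% of the genes above background in either library differed by at least 1 log2 unit, and between eGFP-NP 1 and 2 the count was 0. That share was 24.2% between IL4 3 and eGFP-NP 1, but 35.1%, 46.2% and 37.3% between IL4 3 and IL4 1, 2 and 4. By this measure IL4 3 was closer to eGFP-NP 1 than to any other IL4 library. The labels do not say whether replicates were separate cultures, and p-values measure only the spread between these samples.

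Markers of fibroblasts split the libraries across both groups. The stromal list (11 genes, among them the collagens Col1a2 and Col3a1 and the growth factor receptors Pdgfra and Pdgfrb) summed to 51235, 90665, 387 and 23216 counts in IL4 1, 2, 3 and 4. It summed to 192, 196, 50615 and 44569 counts in eGFP-NP 1, 2, 3 and 4. All 11 genes exceeded background in IL4 1, 2 and 4 and in eGFP-NP 3 and 4, whereas 1 did in IL4 3, 1 in eGFP-NP 1 and 2 in eGFP-NP 2. The macrophage list (15 genes, among them Csf1r, Adgre1 and Cd68) was above background throughout, which fits the label of the cells. Its sum was 69280 to 105035 counts in IL4, 118235 and 122555 in eGFP-NP 1 and 2 and 30050 and 26183 in eGFP-NP 3 and 4. In such bulk samples, fewer macrophages and less RNA of a gene per macrophage cannot be told apart. With the stromal mean as a covariate, the log2 differences of the 24 leading genes described below shifted by at most 0.29, that of Cd83 (to -2.61). These genes were chosen by small p, which disfavours genes that vary with the stromal split inside the groups, so small shifts were favoured beforehand. Among other named genes, Ccl5 went from 1.66 to 1.00 and Arg1 from -3.14 to -3.78, while Tlr9 went from -2.99 to -2.87.

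**Figure D1:**
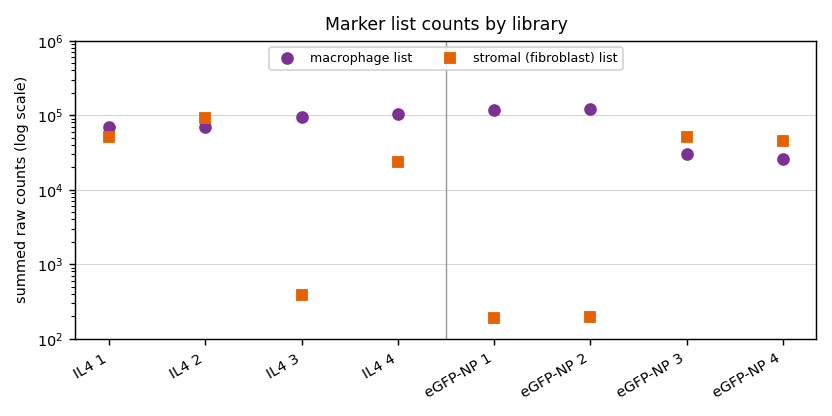
Summed raw counts (log axis) of the macrophage list (purple circles, 15 genes) and of the stromal list (orange squares, 11 genes) in each of the 8 deposited libraries, IL4 on the left of the grey line and eGFP-NP on the right. Stromal counts were 387 in IL4 3, 192 in eGFP-NP 1 and 196 in eGFP-NP 2, and 23216 or more in the other 5 libraries.

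By edgeR's quasi-likelihood test no gene differed between eGFP-NP and IL4 at an adjusted p under 0.05 (0 of 754, 0%, smallest adjusted p = 0.139). An unadjusted p under 0.05 was reached by 84 genes, 62 of them lower in eGFP-NP and 22 higher. DESeq2 on the same libraries called 36 genes lower (4.94% of 729) and 17 higher (2.33%). Fitting all 4 groups of the series together in edgeR, which estimates the spread over all of them, called 13 lower (1.72% of 754) and 4 higher (0.531%), and all 17 were among the DESeq2 calls. Groups that did not overlap in log2 CPM (the log2 count after all libraries are brought to 1 size) numbered 73 genes lower in eGFP-NP (9.68%) and 29 higher (3.85%). This balance moved with the scaling: lower genes made up 71.6% of the non-overlapping genes with TMM scaling, 80.9% with housekeeping scaling and 52.8% with median scaling, and the median log2 difference over all genes was -0.08, -0.29 and 0.05 in that order. The differences that follow were read beside that median. All these counts take the near-identical eGFP-NP 3 and 4 as 2 samples. With both pairs summed (n = 2 and 4), the adjusted p of the 24 leading genes, 0.139 to 0.430 in edgeR with 3 and 4 apart, was 0.519 to 0.892, and DESeq2 run in the same way, an alternative chosen after seeing the data, called 17 genes lower and 4 higher of the 532 to which it gave an adjusted p. For gene lists, DESeq2 counts are given with 3 and 4 apart and then with both pairs summed.

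The genes with the smallest p among those lower in eGFP-NP held products of IL-4-conditioned macrophages, all 3 chains of complement C1q, and regulators of cytokine signalling. Among those higher in eGFP-NP were the noncoding RNA Kcnq1ot1 and the transcription factor gene Runx2. None passed the main test, and they are described by their values in each library.

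**Figure D2:**
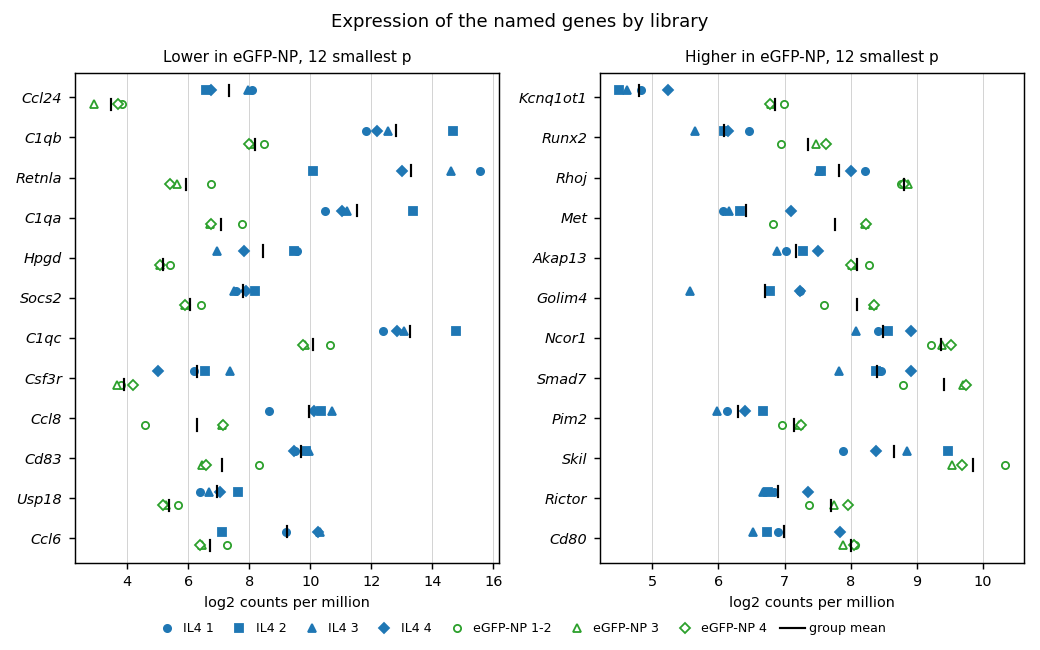
Log2 CPM (TMM scaling) in each library for the 12 genes with the smallest p among those lower (left) and higher (right) in eGFP-NP, with filled blue symbols for IL4 1 to 4, open green symbols for eGFP-NP 1-2, 3 and 4, and black bars for group means. Retnla averaged 13.31 in IL4 and 5.92 in eGFP-NP and Kcnq1ot1 averaged 4.79 and 6.86; Ccl6, Met and Smad7 had groups that overlapped.

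Of the IL-4 response genes, Retnla (FIZZ1, a secreted protein and classical marker of alternative activation) showed the widest gap. Its counts were 55590, 1532, 26941 and 13193 in IL4 1, 2, 3 and 4 and 123, 139, 55 and 39 in eGFP-NP 1, 2, 3 and 4. The lowest IL4 library thus held more than every eGFP-NP library, including those with near-equal totals. The log2 difference was -8.31 ± 1.54 (SE, n = 3 and 4; edgeR adjusted p = 0.148), with means of 13.31 ± 2.39 (SD) log2 CPM in IL4 and 5.92 ± 0.71 in eGFP-NP. Without IL4 1 it was -7.45 (edgeR adjusted p = 0.217), and without IL4 2 it was -8.58 and passed the test (edgeR adjusted p = 0.0487; over all alternatives, DESeq2 included, 6.38e-14 to 0.799).

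Ccl24 (eotaxin-2, an eosinophil attractant) was read at 312, 132, 270 and 167 counts in IL4 and at 19, 13, 7 and 11 in eGFP-NP. Every eGFP-NP library was below background, so only a bound can be given, and Ccl24 was at least 6.87-fold lower than in IL4 (edgeR adjusted p = 0.139). Ccl8, a monocyte and lymphocyte attractant, gave 466, 1843, 1821 and 1780 counts in IL4 and 30, 26, 157 and 133 in eGFP-NP (log2 difference -3.50 ± 0.81, edgeR adjusted p = 0.225; -2.89 without eGFP-NP 1-2). The groups did not overlap for either gene.

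In the IL-4 response list, 22 genes had a log2 difference below 0 and 5 above it, beside 418 and 336 over all genes. Of 27 genes on the panel, 18 were above background in every library of a group, 6 were lower without overlap (9.68% over all genes) and 0 were higher (3.85%). DESeq2 called 7 lower (4.94% over all genes), and 6 with both pairs summed. Besides Retnla, Ccl24 and Ccl8, these 6 were Arg1, Ear3 and Rnase2a, at -2.98, -4.44 and -4.40 log2 units in DESeq2 with 3 and 4 apart. The median log2 difference was -0.84, beside -0.08 over all genes. It ranged from -1.38 without eGFP-NP 1-2 to -0.60 when each library was left out in turn. Chil3 (Ym1), a chitinase-like protein and marker of the same state, stood at 1258, 13, 2821 and 756 counts in IL4 and at 10726, 10897, 296 and 291 in eGFP-NP, so that 3 of the 4 IL4 counts lay between those of the eGFP-NP pairs. The macrophage lipid sensor gene Trem2 and the IL-4 effector Stat6 differed by 0.33 ± 0.64 and 0.10 ± 0.30 log2 units. Mrc1, which encodes the receptor the particles are made to bind, was at 4433, 953, 3084 and 9626 counts in IL4 and 3880, 4018, 1106 and 1011 in eGFP-NP, and its difference of -0.95 ± 0.78 (-1.58 without eGFP-NP 1-2, -0.50 without IL4 4) was within the spread (edgeR adjusted p = 0.671). The chemokine gene Ccl11 (-0.03 ± 1.00) was also within it. Serpinb2, which encodes a protease inhibitor, was at 71, 8, 21 and 416 counts in IL4 and at 6, 14, 22 and 17 in eGFP-NP, above background only in IL4 1 and 4, so no fold is given.

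Socs2, a feedback inhibitor of cytokine receptors, held 216, 409, 197 and 380 counts in IL4 and 120, 89, 67 and 55 in eGFP-NP, which came to -1.75 ± 0.37 on the log2 scale (edgeR adjusted p = 0.185). Socs1, of the same family, held 590, 1882, 398 and 1309 against 215, 246, 283 and 267 counts (-1.67 ± 0.52, edgeR adjusted p = 0.285). Neither pair of groups overlapped. The granulocyte colony-stimulating factor receptor gene Csf3r was at 83, 131, 180 and 49 counts in IL4 and at 17, 14, 13 and 16 in eGFP-NP, all of the latter below background, and was at least 3.28-fold lower (edgeR adjusted p = 0.225). Of the 12 genes of the neutrophil list, 4 exceeded background in no library.

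The 3 C1q genes, whose chains assemble into the recognition molecule of the classical complement pathway, were lower together. C1qa was read at 1665, 15028, 2566 and 3364 counts in IL4 and 251, 282, 117 and 101 in eGFP-NP. C1qb was read at 4174, 36950, 6442 and 7472 against 436, 457, 304 and 244. C1qc was read at 6215, 39989, 9411 and 11802 against 1989, 2021, 1031 and 821. IL4 2 was the highest library for all 3, and even the lowest IL4 library exceeded every eGFP-NP library. The log2 differences were -4.88 ± 0.95, -5.10 ± 0.94 and -3.47 ± 0.76 (edgeR adjusted p = 0.158, 0.148 and 0.206). Without IL4 2 they were -3.67, -3.88 and -2.53, of which C1qb alone passed the test (edgeR adjusted p = 0.0402; over all alternatives, DESeq2 included, 4.05e-09 to 0.799). Among the remaining complement genes, the receptor gene C3ar1 differed by 0.13 ± 0.54 and C5ar1 by -0.26 ± 0.42. The list as a whole had a median of -0.57 with 4 of 11 genes lower without overlap (9.68% over all genes), of which 3 were the C1q genes. DESeq2 called the same 3 lower with 3 and 4 apart (4.94% over all genes) and with both pairs summed. The list median was -1.34 without eGFP-NP 1-2 and -0.07 without IL4 3.

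Hpgd, which inactivates prostaglandins, gave 879, 988, 132 and 356 counts in IL4 and 49, 52, 37 and 31 in eGFP-NP (log2 difference -3.68 ± 0.76, edgeR adjusted p = 0.185). It was the only lipid and eicosanoid gene of 17 without overlap, below the 9.68% that were lower without overlap over all genes. DESeq2 called 1 gene of that list, Hpgd, in either way of counting eGFP-NP 3 and 4, near the 4.94% called lower over all genes with 3 and 4 apart. The median of the list was 0.02, and ran from -0.49 without eGFP-NP 1-2 to 0.41 without IL4 3. Ltb4r1 and Alox15, also of that list, were near or below background. Ptgs2 (COX-2), which makes the prostaglandins that Hpgd breaks down, was high in libraries of both groups, at 83, 2105, 59 and 2162 counts in IL4 and 71, 80, 2174 and 1890 in eGFP-NP.

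Promoter sequences are shown for Retnla and C1qb, of the leading lower genes, and for H2-Aa and H2-Eb1, of the MHC class II and costimulation list. They are set beside the STAT6 and MHC class II elements known from textbooks. The 250 bases before the RefSeq start (GRCm38.p6, 5′ to 3′ on the strand of the gene) were searched on both strands for TTC and GAA separated by 4 bases, the spacing STAT6 prefers, for TTCNNNGAA, the spacing of other STAT factors, and for CTGATTGG, a Y box, which was chosen after the data were seen. Capitals mark a match. The sequences of Ccl8, C1qc, Hpgd, H2-DMa and Kcnq1ot1 held no match and are not shown, so those printed are richer in matches.
Retnla (chr16:48842359-48842608, plus strand): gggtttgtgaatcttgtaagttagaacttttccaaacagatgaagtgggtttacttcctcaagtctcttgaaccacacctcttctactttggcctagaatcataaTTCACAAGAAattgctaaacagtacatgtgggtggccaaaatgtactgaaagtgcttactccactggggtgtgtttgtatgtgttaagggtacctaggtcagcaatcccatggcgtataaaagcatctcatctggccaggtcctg
C1qb (chr4:136886201-136886450, minus strand): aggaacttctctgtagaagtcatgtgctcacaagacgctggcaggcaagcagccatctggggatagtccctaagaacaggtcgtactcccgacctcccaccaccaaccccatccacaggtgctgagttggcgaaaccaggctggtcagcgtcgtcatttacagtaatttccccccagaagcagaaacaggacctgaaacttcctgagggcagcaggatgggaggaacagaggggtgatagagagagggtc
H2-Aa (chr17:34287824-34288073, minus strand): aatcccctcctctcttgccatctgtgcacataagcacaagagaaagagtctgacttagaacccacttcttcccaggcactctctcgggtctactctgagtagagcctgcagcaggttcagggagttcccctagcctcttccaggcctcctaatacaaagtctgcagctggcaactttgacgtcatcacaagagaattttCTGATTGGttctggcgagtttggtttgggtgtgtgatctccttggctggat
H2-Eb1 (chr17:34305617-34305866, plus strand): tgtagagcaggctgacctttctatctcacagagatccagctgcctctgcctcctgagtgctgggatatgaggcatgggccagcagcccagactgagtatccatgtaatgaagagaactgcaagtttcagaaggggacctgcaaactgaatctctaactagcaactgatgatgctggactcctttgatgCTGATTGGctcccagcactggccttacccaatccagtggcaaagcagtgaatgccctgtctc
Of the 7 promoters available for the 12 leading lower genes, 1 held the 4-base spacing, that of Retnla, beginning 145 bases before the start. It was also in 1 of 11 for the leading higher genes (Rhoj) and in 1 of 11 for the MHC class II and costimulation list (Pdcd1lg2). Over all 32851 promoters of the reference it was found in 5.854%, TTCNNNGAA in 7.02% and the Y box in 3.829%. TTCNNNGAA and the Y box were in 0 of the 7 lower and 0 of the 11 higher promoters, and TTCNNNGAA was in 1 of the 11 of the MHC class II and costimulation list (H2-DMb2). Of 11 promoters available for the MHC class II and costimulation list, the Y box was in those of H2-Aa and H2-Eb1, 51 and 62 bases before the start. A match is a description of the letters and says nothing of binding in these cells.

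MHC class II genes were lower in eGFP-NP than in most IL4 libraries and varied widely among those. Cd74, the invariant chain that guides class II molecules to endosomes, was at 21003, 155430, 194985 and 62067 counts in IL4 and 18091, 18588, 7516 and 6726 in eGFP-NP. H2-Aa was at 4689, 58393, 89284 and 14379 counts against 4169, 4200, 2385 and 2080. IL4 1 lay close to eGFP-NP 1 and 2 for both genes, while IL4 2 and 3, the first rich and the second poor in stromal counts, lay far above. The log2 differences were -3.20 ± 0.93 for Cd74, -3.75 ± 1.12 for H2-Aa, -3.73 ± 1.14 for H2-Ab1 and -2.64 ± 0.82 for H2-DMa, a peptide loading factor (edgeR adjusted p = 0.285 for each), without overlap of the groups. Without IL4 3 they were -2.42 for Cd74, -2.70 for H2-Aa and -2.82 for H2-Ab1. For H2-Ab1 the gap was slight, with 11.11 log2 CPM in IL4 1 and 11.09 in eGFP-NP 1-2. For H2-Eb1 the groups overlapped, with 721 counts in IL4 1 and 857 and 958 in eGFP-NP 1 and 2. Dendritic cell markers moved in the same direction: their 6 genes all had differences below 0 (median -1.07), and their summed counts were 353, 442, 577 and 560 in IL4 and 312, 336, 126 and 94 in eGFP-NP, with 1 to 4 of the 6 genes above background in each library. Their part in the MHC class II differences was not tested.

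Over the 15 genes of the MHC class II and costimulation list the median log2 difference was -2.35, and -1.15 without IL4 2. Groups did not overlap for 5 genes that were lower (9.68% over all genes) and 1 that was higher (3.85%). DESeq2 called 7 lower (4.94% over all genes) and 1 higher (2.33%), but 3 and 0 with both pairs summed. The genes lower without overlap included Cd40, the receptor for T cell help, with 103, 347, 69 and 81 counts in IL4 and 37, 40, 19 and 17 in eGFP-NP. The counts in eGFP-NP 3 and 4 are below background, so the log2 difference of -2.35 ± 0.68 (-1.49 without IL4 2) rests partly on values not above it. The gene higher without overlap was Cd80, a ligand of CD28 on T cells, with 136, 148, 98 and 361 counts against 329, 332, 268 and 252 (0.92 ± 0.41, edgeR adjusted p = 0.430). Its highest raw count was that of IL4 4, so the lack of overlap rests on the scaling. Cd86, its partner, had 1147 counts in IL4 2 and 38 to 107 in the other IL4 libraries, beside 29 to 51 in eGFP-NP, and its difference went from -2.98 to -0.89 without IL4 2.

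MHC class I and peptide processing genes, a list drawn up after the values were seen, were examined next. Of 13 genes measured on the panel, 6 were lower without overlap (9.68% over all genes) and 0 were higher. DESeq2 called 4 lower (4.94% over all genes), and 0 with both pairs summed. The median was -1.37 (-0.74 without IL4 2). H2-K1 was at 10814, 55300, 24773 and 17041 counts in IL4 and 10364, 10797, 8115 and 7169 in eGFP-NP. The immunoproteasome subunit gene Psmb9 was at 309, 2172, 608 and 333 counts against 163, 149, 81 and 66 (log2 difference -2.86 ± 0.80, edgeR adjusted p = 0.285). IL4 2 was the highest library for both genes.

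**Figure D3:**
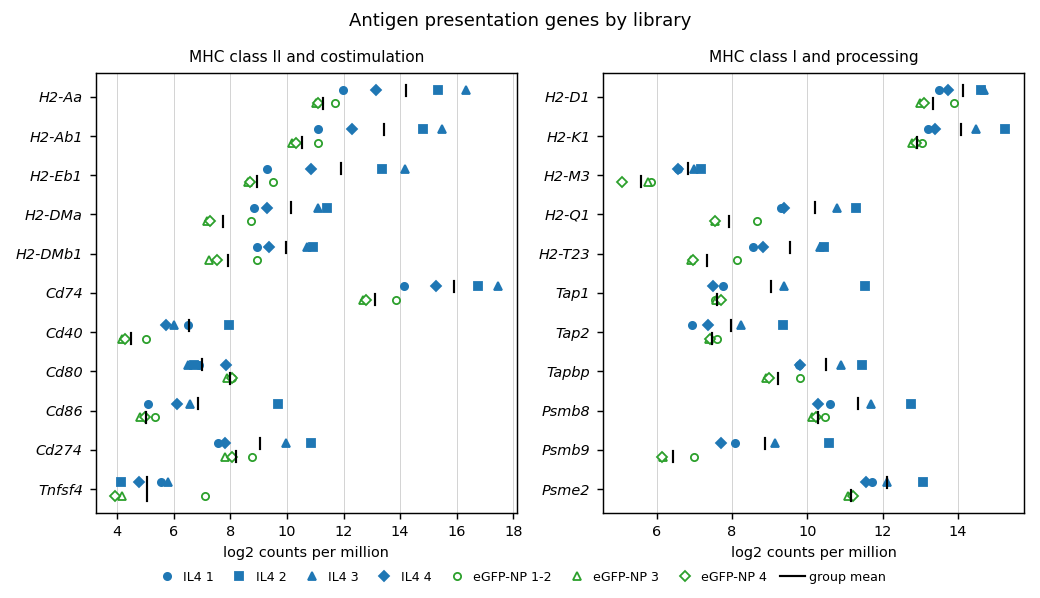
Log2 CPM (TMM scaling) by library for the 11 MHC class II and costimulation genes (left) and the 11 MHC class I and processing genes (right) that were above background in every library of a group, with symbols as filled blue for IL4, open green for eGFP-NP and black bars for means. Cd74 averaged 15.90 in IL4 and 13.10 in eGFP-NP, and Psmb9 averaged 8.88 and 6.43.

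Genes of RNA sensing and interferon response did not pass the test in either direction, and no member was higher without overlap. Of 18 genes on the panel, 3 were lower without overlap (Usp18, Tlr9 and Irf1; 9.68% over all genes). DESeq2, which gave no adjusted p for 4 of the 18, called 2 lower (4.94% over all genes) and 0 higher, and 0 in either direction with both pairs summed. Usp18, an interferon-induced protease that dampens the interferon receptor, was at 94, 276, 111 and 207 counts in IL4 and 57, 65, 43 and 33 in eGFP-NP (log2 difference -1.65 ± 0.43, edgeR adjusted p = 0.285). Tlr9, an endosomal sensor of DNA, was at 85, 1423, 230 and 247 against 62, 79, 48 and 36 counts (-2.99 ± 0.95, and -1.55 without IL4 2). Irf8, a transcription factor of the myeloid lineage, differed by -1.28 ± 0.58 (-0.78 without IL4 2). The endosomal RNA sensors Tlr3, Tlr7 and Tlr8 differed by -0.38 ± 0.45, -0.57 ± 0.53 and -0.56 ± 0.52. Ifnb1 stayed at 8 to 18 counts in IL4 and 13 to 23 in eGFP-NP, below background in all 8 libraries. Isg15, a ubiquitin-like product of interferon signalling, was at 194, 2955, 135 and 177 counts in IL4 and 45, 44, 334 and 282 in eGFP-NP, where the near-identical pairs lay on either side of 3 of the IL4 libraries. The list median was -0.68 with all libraries, 0.11 without IL4 2 and -0.88 at its lowest when another library was left out.

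Inflammatory genes showed no common direction. Of 29 genes on the panel, 13 were above background in every library of a group, and 3 were lower and 1 higher without overlap, near the shares over all genes (9.68% and 3.85%). DESeq2, which gave no adjusted p for 6 of the 29, called 1 in each direction (4.94% lower and 2.33% higher over all genes), and 0 with both pairs summed. The lower ones were Cd40, Il23a and Il1a, of which the latter pair did not exceed 31 counts. The median of -0.22 became 0.25 without IL4 2 and 0.01 without eGFP-NP 1-2. Tnf was at 110, 504, 128 and 123 counts in IL4 and 227, 257, 99 and 102 in eGFP-NP, and Il1b did not exceed 55 counts in any of these libraries. Ccl5, a T cell attractant induced by inflammatory signals, was at 41, 1843, 267 and 138 counts in IL4 and 101, 111, 2184 and 1873 in eGFP-NP, and its difference of 1.66 ± 1.35 was within the spread (edgeR adjusted p = 0.670; 3.55 without IL4 2, 2.34 without eGFP-NP 1-2). For Irf5 itself, whose mRNA these control particles did not carry, counts were 1692, 1986, 1917 and 1770 in IL4 and 2495, 2645, 1182 and 1046 in eGFP-NP (-0.04 ± 0.39).

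Regulators of NF-κB were again listed after the values were seen, so their counts are a description. Of 16 genes, 9 had lower values without overlap (9.68% over all genes) and 0 had higher ones. DESeq2 called 3 lower (4.94% over all genes), and 1 with both pairs summed. The median was -0.46, beside -0.08 over all genes, and -0.29 without IL4 2. Cd83, a dendritic cell maturation marker and NF-κB target, was at 835, 1296, 1085 and 1131 counts in IL4 and 355, 441, 99 and 90 in eGFP-NP (log2 difference -2.32 ± 0.57, edgeR adjusted p = 0.264; -3.08 without eGFP-NP 1-2). The adaptor gene Traf1 was at 63, 114, 90 and 219 counts against 36, 43, 35 and 30. Nfkbia, which encodes the inhibitor that is itself switched on by NF-κB, was at 266, 626, 209 and 558 against 200, 217, 182 and 163. By contrast Tnfaip3, another such inhibitor, was at 121, 258, 227 and 180 counts in IL4 and 407, 437, 233 and 222 in eGFP-NP, with groups that overlapped (0.76 ± 0.40).

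Uptake and lysosomal genes had a median difference of -0.25, which ran from -0.91 without eGFP-NP 1-2 to 0.25 without IL4 3, and 1 of 15 was lower without overlap, no more than the 9.68% over all genes. That gene was Grn, which encodes the lysosomal protein progranulin, at 9435, 15431, 13649 and 19522 counts in IL4 and 7629, 7799, 2676 and 2124 in eGFP-NP (-1.61 ± 0.52, edgeR adjusted p = 0.289; DESeq2 adjusted p = 0.0346, and 0.213 with both pairs summed). The scavenger receptor gene Cd36 was at 3845, 5512, 24283 and 5242 counts in IL4 and at 37958, 39421, 3915 and 3675 in eGFP-NP, so that its values followed the near-identical pairs more than the groups. Of 52 chemokines and their receptors, 3 were lower and 2 higher without overlap, at or below the shares over all genes (9.68% and 3.85%), and the median was -0.27 (-0.10 without IL4 2). DESeq2 called 3 of the 52 lower with 3 and 4 apart, near the 4.94% over all genes. These were Ccl24, Ccl6 and Ccl8, which it also called with both pairs summed. Ccl6 was at 678, 192, 1400 and 1948 counts in IL4 and 172, 209, 98 and 79 in eGFP-NP (-2.91 ± 0.80, edgeR adjusted p = 0.285), and the groups overlapped through IL4 2. Ccl19, next by p in that list, had at most 30 counts in any of the 8 libraries.

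Among genes higher in eGFP-NP, Kcnq1ot1 had the smallest p. This long noncoding RNA silences neighbouring genes of an imprinted cluster. It was at 31, 30, 25 and 58 counts in IL4, 3 of them above background, and at 148, 166, 125 and 104 in eGFP-NP. The log2 difference was 2.09 ± 0.34 (edgeR adjusted p = 0.139), from 4.79 ± 0.33 (SD) to 6.86 ± 0.12 log2 CPM, and the 2 near-identical pairs, which differed so widely elsewhere, had 6.99, 6.79 and 6.79 log2 CPM in eGFP-NP 1-2, 3 and 4. The eGFP-NP SD takes the near-identical 3 and 4 as 2 samples. Summing both pairs gave a difference of 2.12 (edgeR adjusted p = 0.519). With the stromal covariate the difference was 2.08.

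Runx2, a transcription factor of bone and myeloid lineages, was at 100, 94, 53 and 110 counts in IL4 and 149, 156, 201 and 187 in eGFP-NP (1.28 ± 0.36, edgeR adjusted p = 0.285). Skil, an inhibitor of TGF-β signalling, was at 272, 1001, 499 and 530 counts against 1607, 1610, 849 and 787 (1.13 ± 0.46, edgeR adjusted p = 0.392), and Smad7, which acts on the same pathway, was at 405, 469, 245 and 767 against 538, 560, 952 and 821 (1.03 ± 0.40). The other 8 were Rhoj (a small GTPase), Met (the hepatocyte growth factor receptor), Akap13 (a signalling scaffold), Golim4 (a Golgi protein), Ncor1 (a corepressor), Pim2 (a kinase), Rictor (a subunit of mTORC2) and Cd80. Their log2 differences ran from 0.79 for Rictor to 1.43 for Met, and the edgeR adjusted p of the 12 genes ranged from 0.139 to 0.430.

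**Figure D4:**
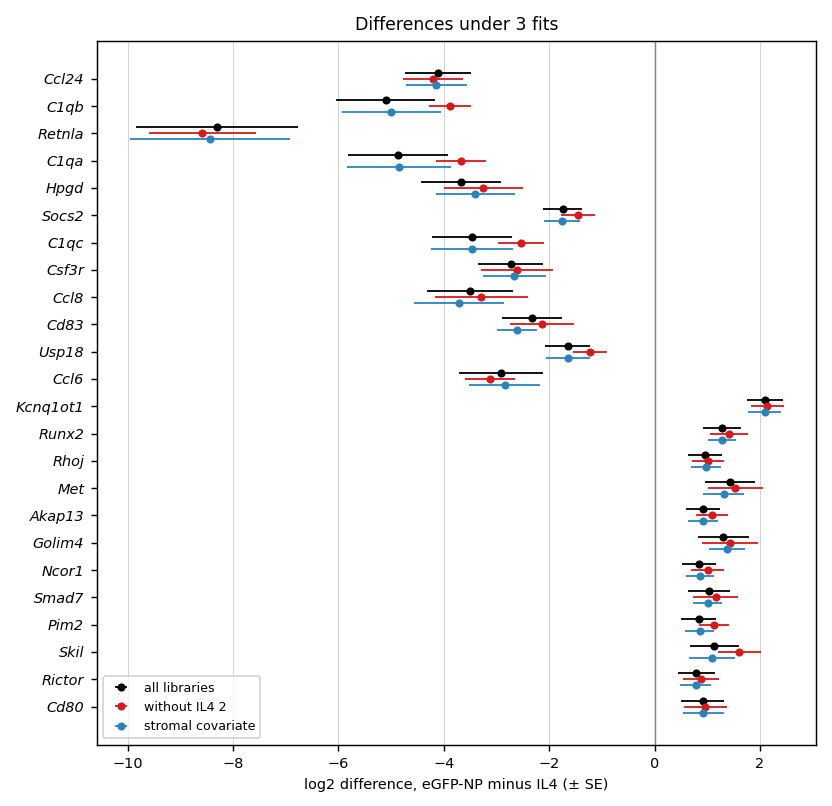
Log2 difference (eGFP-NP minus IL4) with its SE for the 24 genes with the smallest p in each direction, in black with all libraries, in red without IL4 2 and in blue with the stromal mean as a covariate. Every gene keeps its side of 0 in the 3 fits, and the C1q genes move most without IL4 2, from -5.10 to -3.88 for C1qb.

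Of the eosinophil list 5 of 7 genes, of the mast cell and basophil list 5 of 8, of the lymphocyte list 1 of 2, and of the dendritic and endothelial lists 0 of 6 and 0 of 3 exceeded background in no library. Their median log2 differences were 0.12, 0.01, -0.31, -1.07 and -0.40, and the neutrophil list had -0.17. The stromal list had 0.30, and 1.24 without IL4 2, and the macrophage list -0.54 (-1.22 without eGFP-NP 1-2), with Fcgr1, a receptor for IgG, as its gene of lowest p (131, 5411, 513 and 170 counts in IL4, 88, 89, 101 and 76 in eGFP-NP). Housekeeping genes had 0.17. The part of other cell types in the differences was not tested beyond the stromal covariate, under which edgeR called 0 genes and 132 had an unadjusted p under 0.05.

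The same genes were then set beside the particles with IRF5 mRNA, which carried IKKβ and eGFP mRNA too and shared the sort and the second IL-4 exposure by the methods. Directly compared, IRF5-NP and eGFP-NP differed in no gene by edgeR (0 of 754, 0%, n = 3 and 3, smallest adjusted p = 0.0892, 42 genes at an unadjusted p under 0.05), and DESeq2 called 7. This n takes the near-identical eGFP-NP 3 and 4 as 2 samples, and the comparison was not run with both pairs summed. The IL-4 response list averaged 7.63, 7.58 and 6.27 log2 CPM in IRF5-NP 1, 2 and 4. Whether IRF5-NP 1 and 2 were also a near-identical pair was not tested, so the SEs below may be too small. Retnla was at 238, 228 and 5 counts in IRF5-NP 1, 2 and 4, the last below background, and its difference from eGFP-NP of 0.94 ± 0.96 was within the spread. Ccl24, at 16, 28 and 9 counts, was below background in both groups, so they could not be compared. C1qa was at 1042, 839 and 225 counts, between the eGFP-NP and most IL4 values given that IRF5-NP 4 had a total of only 266169 (log2 difference from eGFP-NP 2.23 ± 0.41, edgeR adjusted p = 0.579). Kcnq1ot1 was at 35, 27 and 19 counts, of which 27 and 19 were below the backgrounds of their libraries (28.4 and 32.4), so its difference of -1.92 ± 0.37 (edgeR adjusted p = 0.579) rests partly on values not above background. Usp18, at 137, 125 and 59 counts, differed by 1.48 ± 0.31 (edgeR adjusted p = 0.626). For H2-Aa the difference was -0.48 ± 0.51 and for Cd74 0.09 ± 0.81.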

How the data were processed

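The authors deposited a table of raw counts for 768 nCounter probes (754 genes, 6 positive and 8 negative controls, which were left out of the tests). Their methods name quality control, housekeeping scaling and t-tests with Benjamini-Yekutieli adjustment, but the deposited counts were not normalized. Lane and cartridge were not given in the sources used here. Groups came from the labels. Genes were tested with edgeR 4.0.16 (quasi-likelihood, TMM scaling, no filter, two-sided, Benjamini-Hochberg adjustment over 754 genes, called under 0.05) in R 4.3.3. Standard errors were derived from the F statistic (absolute log2 difference over its square root). Log2 CPM used a prior count of 2, so low counts are pulled toward each other. DESeq2 1.42.0, limma 3.58.1 (log2 of scaled counts plus 1), other scalings, a background filter, separate or merged libraries, a replicate block, a stromal covariate and leaving out libraries were alternatives (DESeq2 with both pairs summed was added after seeing the data), and code was tested on simulated data. DESeq2 gave an adjusted p for 729 genes.

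Named genes were the 12 with the smallest p in each direction among those above background in every library of a group, 6 preset genes, and up to 4 per list, of which some are not reported here. Members and lists were chosen with earlier results of these data known, and the lists for MHC class I and NF-κB, Chil3, Tnf and other genes outside this rule after values were seen, so counts over them are descriptions. A bound on a fold used the background of each library where every eGFP-NP library lay below it and every IL4 library above it. Of the gene names, 744 matched a current RefSeq symbol, 9 a synonym and 1 neither. Whether replicate numbers pair the samples was not settled. Deviations of same-numbered libraries from their group means correlated at -0.388, -0.405, -0.816 and 0.318. The near-identical eGFP-NP pairs force opposite signs, as for IL4 3 against eGFP-NP 1, 2, 3 and 4 (0.819, 0.821, -0.816 and -0.821). These correlations therefore cannot decide it.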

Additional observations from a re-analysis of the deposited data

Results flagged for a closer look

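Of 68 results examined for a library far from the others of its group, 3 stood out, all through IL4 2, where chance gives about 1 in 20. Cxcl9, an interferon-γ-induced chemokine, had 24006 counts in IL4 2 and 26 to 36 in IL4 1, 3 and 4, so the gap took 0.903 of the range in log2 CPM, and its log2 difference between eGFP-NP and IL4 went from -7.89 to -0.31 without IL4 2. C4a, a complement component, had 3059 counts there and 19 to 33 in the others (0.841 of the range), and was below background in every eGFP-NP library, so no fold is given. The mean of the IL-4 response list was lowest in IL4 2, at 6.90 log2 CPM beside 8.20 to 8.56 (0.833 of the range). Why IL4 2 stood apart was not tested.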

How the results depend on the processing

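The count of genes called between eGFP-NP and IL4, 0 by edgeR, was also 0 with limma, housekeeping scaling, median scaling, the background filter and the stromal covariate (77, 90, 84, 68 and 132 genes at an unadjusted p under 0.05) and with the replicate block (58 at an unadjusted p under 0.05). It was 53 with DESeq2, 21 with DESeq2 and both pairs summed (all 21 among the 53; chosen after seeing the data), 6 with eGFP-NP 1 to 4 kept separate (Ccl24, Kcnq1ot1, C1qb, Retnla, C1qa and Hpgd), 1 with 3 and 4 also summed (Il33, at 1 to 14 counts and so below background), 17 with all 4 groups in 1 fit and 1 with the t-test named in the methods under either adjustment (Kcnq1ot1). Leaving out a library gave 0 to 2 calls: C1qb and Retnla without IL4 2, and Ptprk and Cd83 without eGFP-NP 1-2. The latter calls rest on the small spread of the near-identical eGFP-NP 3 and 4, the only libraries then left in that group. Between IRF5-NP and eGFP-NP the count of 0 became 7 with DESeq2, 2 with separate libraries and 16 with the stromal covariate. Of 877 values of named genes under alternatives 787 kept direction and call, 73 became called and 17 changed sign, all in Ccl11 and Irf5. Ccl11, at -0.03, was 0.17 with DESeq2, 0.12 with median scaling, 0.11 with all 4 groups and -0.54 to 0.66 when 1 library was left out. Irf5, at -0.04, was 0.13 with DESeq2, 0.28 with DESeq2 and both pairs summed, 0.073 with median scaling, 0.12 with separate libraries, 0.11 with both pairs summed, 0.067 with the replicate block, 0.089 with all 4 groups and -0.30 to 0.22 when 1 library was left out. The causes of these shifts were not tested. Depth limits what can be read of genes near 19.7 to 34.9 counts, and the near-identical pairs leave fewer independent samples than libraries.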
